A study of Homo sapiens with 36 samples.

Results

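The 9 genes described here encode kinases of the RNA polymerase II C-terminal domain (CTD) and the cyclins that activate them: CDK7, CDK8, CDK9, CDK12, CDK13, CDK19, CCNT1, CCNT2 and CCNK. A PAR-CLIP cluster, a short stretch of RNA that carries 4-thiouridine (4SU) crosslinks, was counted for a gene when its midpoint lay on the strand and within the GENCODE 44 body of that gene on GRCh38. All 9 genes held clusters, 262 of the 278185 clusters in the 18 deposited lists, and clusters were found in 9830 of 20046 annotated protein-coding genes. The lists came from HEK293 Flp-In T-REx cells, a human embryonic kidney line with an insertion site for doxycycline-inducible transgenes. A line with FLAG-SCAF4 and a line with FLAG-SCAF8 received 100 ng/mL doxycycline by the labels, and the parental cells, which express no tagged protein, served as the control. The methods of the study give a different dose and name doxycycline for the parental cells too. All 3 lines are wild type for SCAF4 and SCAF8, so the tagged proteins were made beside the endogenous ones. Cells were grown overnight in 100 µM 4SU, pulsed with 500 µM 4SU for 2 h and irradiated at 365 nm with 2000 J/m2. Each line gave 3 lists from the FLAG IP and 3 from input, the RNA of the same extract before the IP, and each list joined a soluble and a chromatin library.

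PAR-CLIP marks where RNA touches protein, because a crosslinked 4SU is read as C after reverse transcription. CDK7 is the kinase of the general transcription factor TFIIH, and CDK8 and its paralog CDK19 are the kinases of the Mediator kinase module. CDK9 with cyclin T1 or cyclin T2, the products of CCNT1 and CCNT2, forms P-TEFb, which releases paused polymerase into elongation. CDK12 and CDK13 both pair with cyclin K, the product of CCNK, and phosphorylate the CTD of elongating polymerase. SCAF4 and SCAF8 bind the phosphorylated CTD, and these transcripts encode kinases that phosphorylate the CTD and the cyclins of such kinases.

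The lists held from 1621 clusters, in control IP replicate 3, to 54404, in SCAF4 IP replicate 2. Values are therefore given as numbers of clusters and as shares, in clusters per 10000 clusters of the list. A count of 0 allows up to 3 clusters, which is a share of 0.551 to 1.64 per 10000 in a SCAF4 or SCAF8 IP list, 2.56 to 6.26 in an input of these lines and 3.11 to 18.5 in a control IP list. These limits and the binomial intervals given below cover counting error only, and the read depth behind the lists is unknown. Replicate 1 was read at another read length than replicates 2 and 3. The study calls its replicates biological, and the labels do not say whether they were separate cultures, so p-values measure the spread between these lists.

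Overlapping clusters of the 9 genes merged into 83 regions with a median length of 170 nt. The sequences of 7 regions are shown because the patterns described below rest on them. The first 4 windows lie in first exons and held clusters of the SCAF4 or SCAF8 IP alone. The last 3 lie in regions with clusters in the IP of both proteins, in inputs and in a control IP. Windows are centred on the regions, were read from GRCh38 on the transcribed strand and run 5′ to 3′ over 100 nt, or 30 nt for the first, which lies in a 5′ UTR. Capitals mark each CGG or CGA.
CDK13 region 1, 5′ UTR of exon 1, chr7:39950369-39950398, plus strand: gttttcgctgcCGAggataggaCGACGAgc
CDK13 region 2, coding exon 1, chr7:39951007-39951106, plus strand: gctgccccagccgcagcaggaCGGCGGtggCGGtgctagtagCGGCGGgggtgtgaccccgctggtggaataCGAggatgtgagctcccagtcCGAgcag
CDK8 region 1, coding exon 1, chr13:26254665-26254764, plus strand: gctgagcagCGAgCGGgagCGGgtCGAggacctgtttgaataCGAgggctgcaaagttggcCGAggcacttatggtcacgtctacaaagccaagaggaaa
CCNT1 region 1, coding exon 1, chr12:48716564-48716663, minus strand: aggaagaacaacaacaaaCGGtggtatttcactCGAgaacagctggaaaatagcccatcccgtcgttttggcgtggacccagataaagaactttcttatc
CDK12 region 3, coding exon 2, chr17:39471081-39471180, plus strand: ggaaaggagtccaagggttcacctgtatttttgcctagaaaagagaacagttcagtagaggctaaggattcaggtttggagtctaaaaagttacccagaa
CCNK region 6, coding exon 7, chr14:99502235-99502334, plus strand: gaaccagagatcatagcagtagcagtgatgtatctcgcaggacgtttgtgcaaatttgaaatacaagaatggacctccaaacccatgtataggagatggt
CCNK region 12, intron 9, chr14:99506692-99506791, plus strand: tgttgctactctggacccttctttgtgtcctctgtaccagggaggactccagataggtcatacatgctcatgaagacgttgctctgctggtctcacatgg
The CDK13 windows hold 3 and 7 of these trinucleotides, the CDK8 window 6 and the CCNT1 window 2. The CDK12 window and both CCNK windows hold 0. The 7 windows differ in position as well as in kind of list, because the last 3 lie further inside their genes. In 100 nt windows of all 83 regions, CGG or CGA occurred in 9 of 10 in the first 1000 nt and in 34 of 73 further on. Position and kind of list were not tested separately. The trinucleotides did not divide the regions by kind of list. The CDK12 exon 1 region, found in 4 inputs and 1 control IP list, held 3 in its window, and the IP-only CDK19 region in intron 1 held 0. CGG or CGA occurred in 54.5% of 55 IP-only windows of the 9 genes and in 46.4% of the other 28. Over all protein-coding genes the shares were 66.8% of 46054 IP-only windows and 53.0% of the other 24658.

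Of all 9 genes, CCNK, CCNT1 and CDK12 carried the most clusters, 70, 67 and 55 over the 18 lists. CCNT2 had 26, CDK13 17, CDK9 11, CDK8 7, CDK19 5 and CDK7 4. The 9 genes together held 16, 68 and 27 clusters in the SCAF4 IP lists of replicates 1 to 3, and 19, 16 and 38 in the SCAF8 IP lists. The control IP lists held 8, 1 and 2, the SCAF4 inputs 13, 4 and 5, the SCAF8 inputs 5, 10 and 11, and the control inputs 13, 4 and 2. As shares, the SCAF4 IP lists gave 8.43, 12.5 and 7.95 per 10000 and the SCAF8 IP lists 7.54, 8.75 and 9.16. The control IP lists gave 8.30, 4.32 and 12.3 per 10000 and the inputs of the tagged lines 5.47 to 12.2, so that the ranges overlapped for the group as a whole. Genes are long or short and expressed at levels these lists do not give, so the order of counts is not an order of binding.

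**Figure D1:**
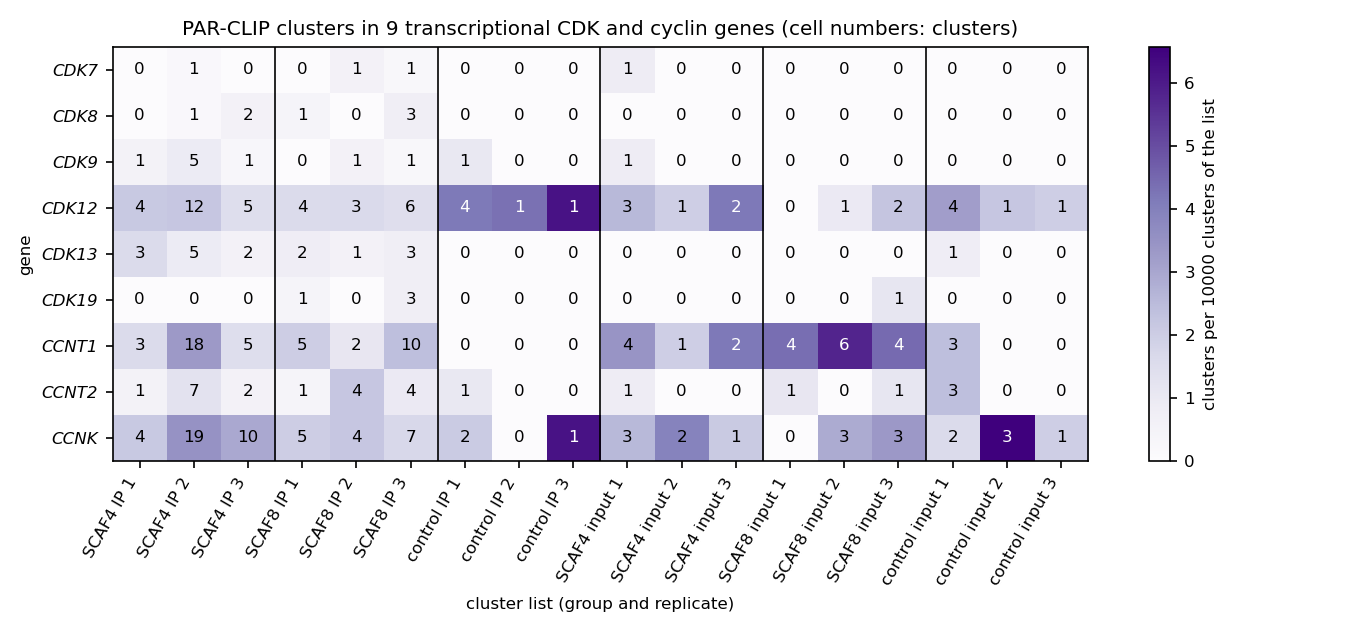
Clusters of each of the 9 genes in each of the 18 lists; rows are genes, columns are lists grouped by IP or input and line, the printed number is the cluster count and the colour the share in clusters per 10000 clusters of the list. CCNK, CCNT1 and CDK12 have clusters in most lists, whereas CDK8 has them in SCAF4 and SCAF8 IP lists alone.

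The comparison of IP with input asks which transcripts were held by the tagged proteins beyond their presence in the extract. CDK13 was the only one of the 9 genes called higher in the IP, in the test that does not use replicate numbers. Its clusters numbered 3, 5 and 2 in the SCAF4 IP lists and 2, 1 and 3 in the SCAF8 IP lists, against 0 in each of the 6 inputs of these lines, 0 in each control IP list and 1 in control input replicate 1. As shares these were 1.58, 0.919 and 0.589 per 10000 with SCAF4 and 0.794, 0.547 and 0.723 with SCAF8. All 6 IP lists thus stood above all 6 inputs, and SCAF4 IP replicate 1 was the highest. A count of 0 in these inputs allows 2.56 to 6.26 per 10000 in each list, above every CDK13 share of the IP. The list-by-list separation, on which the test rests, therefore cannot tell a lower input share from a short input list. The IP mean was 0.86 ± 0.38 per 10000 (SD, n = 6; two-sided exact permutation test over 924 splits, p = 0.00216, adjusted p = 0.0282 over 7676 genes). Pooled, the share of 0.832 per 10000 was at least 1.39-fold higher than the limit of 0.598 that a count of 0 allows over the 6 inputs. Of all genes tested, 5.86% were called higher in the IP and 3.52% lower, and 1 of the 9 genes was called. Tested genes needed a cluster in at least 3 of the 18 lists. CDK13 passed this filter only through its IP lists, since its 1 other list was control input replicate 1. With every gene that had a cluster in any list tested, its adjusted p was 0.0361 over 9830 genes (exact permutation test). The median difference, IP minus input, was 0.02 per 10000 over the 9 genes and 0.21 over all genes tested. IP and input of the same line and number come from the same extract. A block of replicate numbers holds the lists of both lines, so it keeps the number but not these pairs. With this block CDK13 did not pass (exact permutation p = 0.00926, the smallest the block allows, adjusted p = 0.0843), nor did any other gene. Pairs by line and number were not tested. With the higher-scoring clusters of each list alone, those from its median score up, the CDK13 difference was 0.88 per 10000 with an adjusted p of 0.26, and with any replicate number left out the smallest p is 0.0286 and no gene is called.

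Neither cyclin gene of P-TEFb passed the test against input. CCNT1 held 3, 18 and 5 clusters in the SCAF4 IP lists and 5, 2 and 10 in the SCAF8 IP lists, against 4, 1 and 2 in the SCAF4 inputs and 4, 6 and 4 in the SCAF8 inputs. The shares were 1.58, 3.31 and 1.47 per 10000 and 1.98, 1.09 and 2.41 in the IP, and 3.41, 1.96 and 4.17 and 4.37, 5.79 and 4.44 in the inputs. The inputs were the higher side, and the groups overlapped because SCAF4 input replicate 2 lay under 3 of the IP lists. The input mean of 4.02 ± 1.27 was 2.04 times the IP mean of 1.97 ± 0.79 (SD, n = 6 each), and this difference did not pass adjustment (exact permutation p = 0.0108, adjusted p = 0.0724). CCNT1 was also listed with 3, 0 and 0 clusters in the control inputs and 0 in all control IP lists. CCNT2 had means of 0.99 ± 0.67 per 10000 in the IP and 0.51 ± 0.57 in the inputs (SD, n = 6 each; exact permutation p = 0.203, adjusted p = 0.348). The difference between the 2 cyclins itself was not tested. In numbers of clusters instead of shares, CCNT1 was higher in the IP by 3.67 clusters a list, since IP lists are longer. CDK9, their kinase, had 1, 5 and 1 clusters with SCAF4 and 0, 1 and 1 with SCAF8, and 1 cluster in the 6 inputs (exact permutation p = 0.229, adjusted p = 0.382).

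CCNK and CDK12, which encode the cyclin K and CDK12 pair, had nearly the same mean shares in IP and input over both lines together. CCNK held 4, 19 and 10 clusters in the SCAF4 IP lists and 5, 4 and 7 in the SCAF8 IP lists, or 2.11, 3.49 and 2.94 and 1.98, 2.19 and 1.69 per 10000. Its inputs gave 2.56, 3.91 and 2.09 per 10000 in the SCAF4 line and 0, 2.90 and 3.33 in the SCAF8 line. The means were 2.40 ± 0.68 and 2.46 ± 1.36 (SD, n = 6 each; exact permutation p = 0.929, adjusted p = 1). CDK12 held 4, 12 and 5 clusters in the SCAF4 IP and 4, 3 and 6 in the SCAF8 IP, which gave shares within a narrow range of 1.45 to 2.21 per 10000. Its inputs ranged from 0 to 4.17 per 10000, and the means were 1.74 ± 0.33 in the IP and 1.98 ± 1.43 in the inputs (SD, n = 6 each; exact permutation p = 0.719, adjusted p = 0.856). In numbers instead of shares, the IP was higher by 6.17 clusters a list for CCNK (exact permutation test, adjusted p = 0.0166) and by 4.17 for CDK12 (adjusted p = 0.0254), and both were called higher on that scale, as were 2898 of all genes. By line, the CDK12 means per 10000 were 1.93 in the SCAF4 IP and 2.90 in its inputs. They were 1.56 in the SCAF8 IP and 1.06 in its inputs, the opposite direction, and the lists overlapped in both lines. Unlike CDK12, its paralog CDK13 had no cluster in these inputs.

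The Mediator kinases and CDK7 had few clusters. CDK8 held 0, 1 and 2 clusters in the SCAF4 IP lists and 1, 0 and 3 in the SCAF8 IP lists, and it was listed at 0 in all 12 other lists. Its pooled IP share of 0.364 per 10000 lay under the 0.598 that a count of 0 in the 6 inputs allows, so a difference was not detectable at this depth (exact permutation p = 0.0606, adjusted p = 0.164). CDK19 held 1, 0 and 3 clusters in the SCAF8 IP, 1 in SCAF8 input replicate 3 and 0 in the SCAF4 IP (exact permutation p = 1, adjusted p = 1). CDK7 had 1 cluster in SCAF4 IP replicate 2, 1 each in SCAF8 IP replicates 2 and 3, and 1 in SCAF4 input replicate 1 (exact permutation p = 1, adjusted p = 1).

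**Figure D2:**
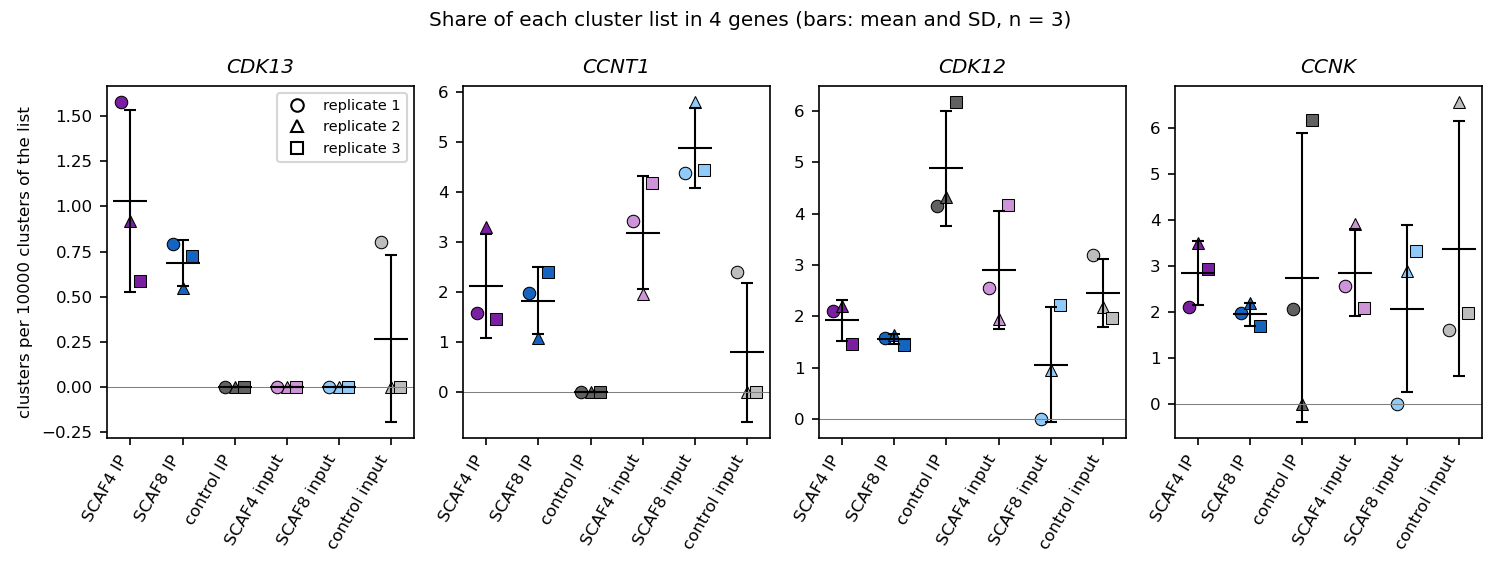
Share of each list, in clusters per 10000 clusters, for CDK13, CCNT1, CDK12 and CCNK; each point is a list, and the bars give the mean ± SD of 3 lists per group. CDK13 lies above 0 in all 6 SCAF4 and SCAF8 IP lists and at 0 in their inputs, and CDK12 is highest in the control IP.

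The control IP measures RNA that the FLAG resin retains without a tagged protein. CDK12 was present there in all 3 lists, with 4, 1 and 1 clusters or 4.15, 4.32 and 6.17 per 10000, above each of the 6 SCAF4 and SCAF8 IP lists. The control IP mean of 4.88 ± 1.12 (SD, n = 3) was 2.80 times the IP mean, although in numbers of clusters the IP was higher by 3.67 a list. Replicates 2 and 3 of the control IP rest on 1 cluster each. Over the 84 splits, no gene passed adjustment in this comparison, in which the lowest adjusted p was 0.098 and 1700 genes had an unadjusted p below 0.05. CDK12, CDK13 and CCNT1 were at the smallest p that the design allows (exact permutation p = 0.0119, adjusted p = 0.098), CDK12 lower in the IP and the other two higher. The lists did not overlap with the IP higher for 14.4% of all genes and with the IP lower for 2.84%, and for 2 and 1 of the 9 genes. The 2 higher genes rest on control IP lists at 0, and the limit of 2.21 per 10000 in the 13573 control clusters lies above the CDK13 share and just under the pooled CCNT1 share of 2.24. For the other 6 genes the exact permutation p was 0.214 to 0.786. CCNK had 2, 0 and 1 control IP clusters, CDK9 and CCNT2 had 1 each in replicate 1, and CDK7, CDK8 and CDK19 had 0.

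Between SCAF4 IP and SCAF8 IP no gene of the 9 had separate lists, where 9.91% of all genes were higher and 5.65% lower with SCAF4 without overlap. In single lines, with 3 lists a side, the smallest exact permutation p is 0.1. CDK13 was higher than the inputs without overlap in both lines, as were 27.2% of all genes with SCAF4 and 13.3% with SCAF8. Here too the CDK13 inputs were at a count of 0, with limits in each list above its IP shares. CCNT1 was lower than the inputs without overlap with SCAF8, at 1.83 against 4.87 per 10000, as were 7.06% of all genes, and lists of the SCAF4 line overlapped, where 6.98% of all genes were lower. CDK19 clusters of the IP came from the SCAF8 line alone, and its 0 of 107357 SCAF4 IP clusters allows a share of up to 0.279 per 10000, against a pooled 0.471 with SCAF8. That difference was not separable by lists, since SCAF8 IP replicate 2 was also at 0.

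Clusters near gene starts took a larger share of the IP clusters than of the input clusters of the 9 genes. Within the first 1000 nt of the gene lay 34 of 184 IP clusters, 18.5% (95% exact binomial interval 13.1 to 24.9), against 3 of 67 input clusters, 4.48% (0.933 to 12.5). The share was 19.8% with SCAF4, 16.4% with SCAF8 and 9.09%, 1 of 11 clusters, in the control IP. In single lists it was 5 of 16, 11 of 68 and 6 of 27 clusters with SCAF4, and 3 of 19, 3 of 16 and 6 of 38 with SCAF8. Of the other lists it was 2 of 13 in SCAF4 input replicate 1, or 15.4%, close to the 15.8% of SCAF8 IP replicates 1 and 3, then 1 of 8 in control IP replicate 1 and 1 of 13 in control input replicate 1, and 0 in the rest. Over all protein-coding genes the shares were 7.57% in the IP, 6.98% in the control IP and 4.90% in the inputs. The intervals treat clusters as independent, although clusters of different lists share sites, and no test was made over the 9 genes. The 4 clusters of other lists in the first 1000 nt were 3 of CDK12 and 1 of CDK7, all in replicate 1 lists. The limit of 1000 nt cuts CDK12 region 2, a site shared by IP and input lists. There, IP midpoints of 936 to 995 nt counted as inside and those from 1075 nt as outside. Input midpoints of 936 and 951 nt counted as inside, and those of 1000 and 1069 nt as outside. Other limits were not tested.

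**Figure D3:**
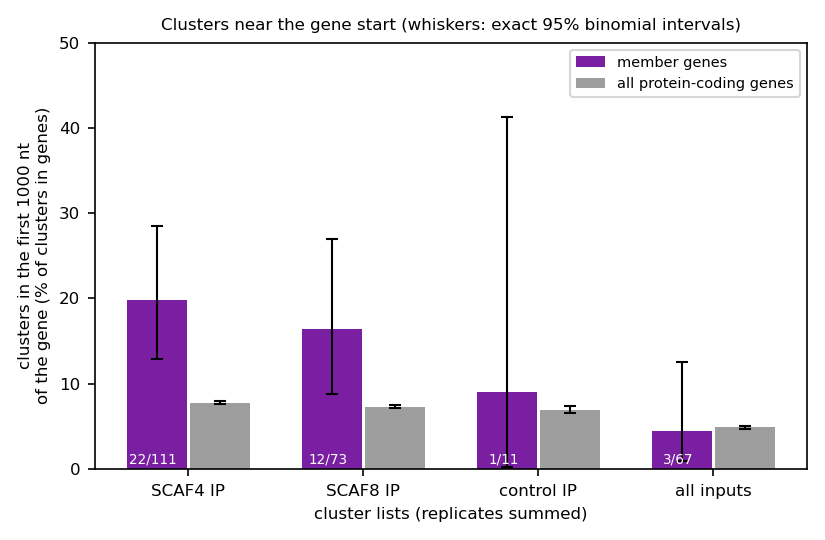
Percent of clusters whose midpoint lies in the first 1000 nt of the gene, for the 9 genes (purple) and for all protein-coding genes (grey), by kind of list with replicates summed; whiskers are 95% exact binomial intervals and the bars of the 9 genes carry their counts. For the 9 genes the share is 19.8% with SCAF4, 16.4% with SCAF8 and 4.48% in all inputs, and the control IP bar rests on 11 clusters.

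CDK13 region 1 was the start-proximal region found in the most IP lists without any other list. It spans chr7:39950044-39950723, from upstream of exon 1 of the canonical isoform into that exon, with its midpoint in the 5′ UTR. The region was found in all SCAF4 IP lists and in SCAF8 IP replicates 1 and 3. Exon 1 starts 135 nt from the annotated gene start, and a SCAF4 IP replicate 1 cluster had its midpoint before the exon, at 79 nt. In SCAF4 IP replicate 2 the region began 77 nt before the annotated gene start, and in replicate 1 it also began before that start. CDK13 region 2 follows in the coding part of the same exon, at chr7:39950991-39951122, with SCAF4 IP replicates 2 and 3. Together 8 of 16 CDK13 clusters of the IP fell in the first 1000 nt. The only CDK13 cluster outside the IP crossed the end of exon 7, with its midpoint in intron 7, far from the start, in control input replicate 1. CDK8 region 1, at chr13:26254614-26254816 across the end of exon 1, held 4 of the 7 CDK8 clusters and came from SCAF4 IP replicates 2 and 3 and SCAF8 IP replicates 1 and 3. CDK7 region 1, at chr5:69234906-69235059 across the end of exon 1 of the canonical isoform, held all 4 clusters of its gene, 1 of them of an input.

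CCNT1 showed a start-proximal region in the IP and a pile of clusters at its other end in IP and input. Region 1, at chr12:48716477-48716751 over exon 1 and past both its ends, was found in all SCAF4 IP lists and in SCAF8 IP replicate 2, and in no other list. All 24 input clusters of CCNT1 lay in the last exon, exon 9, and so did 35 of its 43 IP clusters. CCNT1 region 10, in the 3′ UTR at chr12:48692646-48692851, was found in 4 IP lists and SCAF8 input replicate 1. CCNT2 region 5, in intron 6 of the canonical isoform at chr2:134946263-134946443, was found in 5 IP lists, 1 control IP list and 2 inputs. CCNT2 region 3, across the start of exon 3 at chr2:134936829-134936968, was found in 3 IP lists alone. CDK9 region 3, across the end of exon 5 at chr9:127788214-127788415, came from SCAF4 IP replicates 1 and 2. CDK9 region 6, in the 3′ UTR at chr9:127789663-127789895, came from 2 IP lists and 1 control IP list.

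CDK12 was crosslinked in its first coding exons in every kind of list. Region 3 lay in exon 2 and crossed its start, at chr17:39470876-39471385. It was found in all 6 IP lists, all 3 control IP lists and 8 of 9 inputs, 17 of 18 lists. Region 2, in exon 1 and just across its end at chr17:39462188-39463118, was found in all 6 IP lists, 1 control IP list and 4 inputs. In all, 27 of 34 CDK12 clusters of the IP, 6 of 6 of the control IP and 13 of 15 of the inputs lay in coding exons. CCNK was crosslinked further inside the gene. Region 6, over exon 7 and past both its ends at chr14:99502180-99502390, was found in all 6 IP lists, 1 control IP list and 7 inputs. Region 12, in intron 9 at chr14:99506630-99506854, was found in all 6 IP lists, 1 control IP list and 6 inputs. Introns of the canonical CCNK isoform held 32 of 49 IP clusters and 9 of 18 input clusters, and 13 of the 18 CCNK regions lay outside its exons. Of these 13 regions, 2 lie in an exon of another annotated CCNK isoform. CDK19 region 1, in intron 1 at chr6:110782811-110782899, came from SCAF8 IP replicates 1 and 3.

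**Figure D4:**
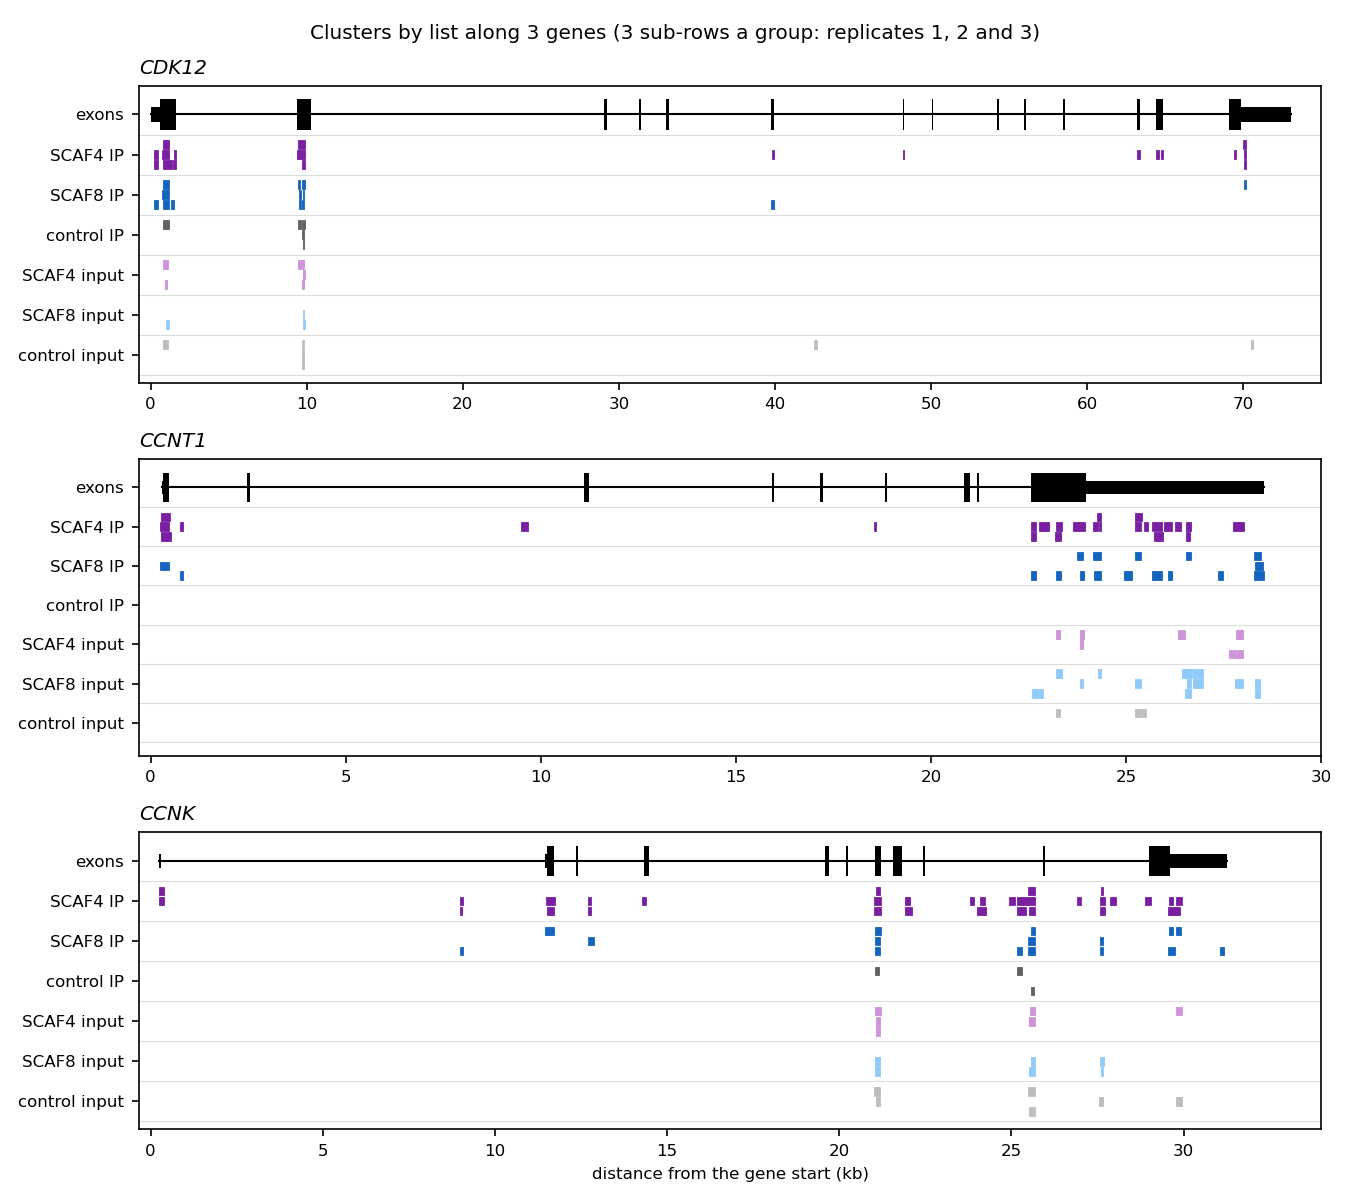
Clusters of CDK12, CCNT1 and CCNK drawn to scale along each gene from its start, one row per list, with exons of the canonical isoform as boxes (tall where coding) and distance in kb. CDK12 clusters of all kinds of list lie in exons 1 and 2, CCNT1 input clusters all lie in the last exon, and 32 of 49 CCNK clusters of the IP lie in introns.

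Of the 83 regions, 78 held a cluster of a SCAF4 or SCAF8 IP list, 26 of an input and 7 of a control IP list. IP lists alone held 55, or 66.3%, of which 23 were found in 2 or more lists and 32 in 1. Over all 70712 regions of protein-coding genes the share was 65.1%, near the 69.1% of all clusters that the IP lists hold. Both proteins shared 34 regions, 31 were found with SCAF4 and without SCAF8, and 13 with SCAF8 and without SCAF4. SCAF4 IP replicate 2, the longest list, was the only source of 21 regions. With regions placed by their midpoints, 9 of 10 in the first 1000 nt held IP clusters alone, against 46 of 73 further on, or 63.0%, and the shares over all genes were 75.4% and 64.4%. The other of these 10 was CDK7 region 1. Counting regions with any cluster midpoint in the first 1000 nt adds CDK12 region 2, which holds inputs and a control IP list, and makes it 9 of 11, or 81.8%. Regions per 10 kb of gene ran from 0.146 in CDK19 to 13.7 in CDK9, the shortest gene of the set, whereas CDK12 had 1.13 and CCNK 3.34.

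**Figure D5:**
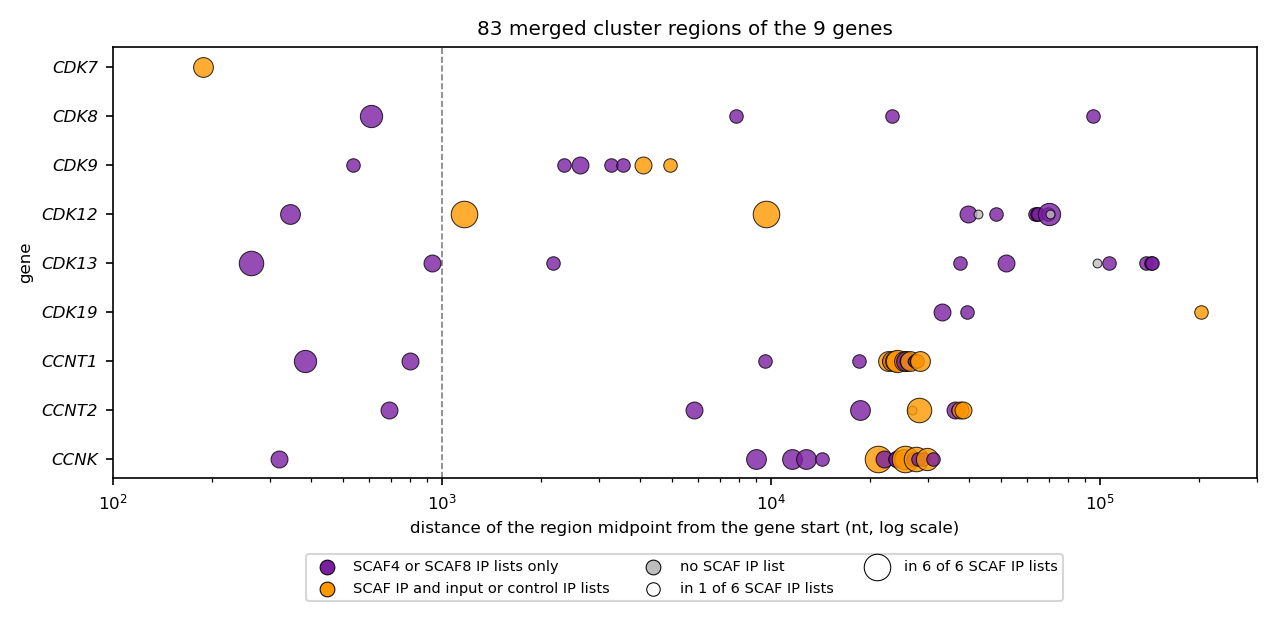
The 83 regions by gene and by distance of the midpoint from the gene start, on a log axis in nt; purple regions held SCAF4 or SCAF8 IP clusters alone, orange ones also an input or control IP cluster and grey ones no SCAF4 or SCAF8 IP cluster, and larger points were found in more of the 6 IP lists. Of 10 regions with a midpoint in the first 1000 nt, 9 hold IP clusters alone, and the CDK12 region just past that line holds input and control IP clusters too.

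Steps modelled on the study's consensus sites were applied to the 9 genes, with input overlap counted by list, input density by merged regions of the gene with 2000 nt at both ends, and any overlap with a control IP cluster removed. They differ from the study's own steps in these counts, and its sets were not rebuilt here. Regions found in at least 2 of the 6 IP lists numbered 42, of which 29 remained after overlap with more than 1 input list was removed. Genes whose merged input regions reached 1 per 10 kb were then dropped, which left 21 regions, and overlap with the control IP left 20. CCNK kept 6, CCNT2 5, CDK12 and CDK13 3 each, and CDK7, CDK8 and CDK19 1 each. CCNT1 lost all 6 remaining regions to its input density of 3.38 per 10 kb, and CDK9 lost 2 to a density of 1.10 that came from 1 input region in a short gene. Of all tested genes, 29.3% stood at or above this density. The CCNT1 region in exon 1 was among those dropped, although it held no input cluster itself. For each protein separately, 13 regions were left with SCAF4 and 6 with SCAF8. Without SCAF4 IP replicate 2, 10 of the pooled regions were left.

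Position classes depended on the isoform. Classed on the isoform with the most exonic bases, the 3′ UTR held 26.6% of IP clusters and 44.8% of input clusters of the 9 genes, against 13.0% and 20.7% over all protein-coding genes. By the canonical isoform it held 24.5% and 35.8%, against 13.2% and 23.6%. CCNT1 alone supplied 24 of these 45 IP clusters and 16 of these 24 input clusters, so the shares are largely those of 1 gene. Coding exons held 29.9% of the IP clusters of the 9 genes by the first choice and 42.4% by the second, and introns 22.3% and 27.7%. Clusters across a splice junction made up 11.4% of IP clusters in the 9 genes and 28.1% over all genes by the first choice, and 15.2% and 31.5% by the second.

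The base composition of the regions differed with their position. In 100 nt windows the median GC share was 45.0% over the 83 regions and 48.0% over all 70712 regions of protein-coding genes. Near gene starts it was 60.5% in 10 regions of the 9 genes, close to 61.0% in 4777 such regions of all genes, and further on it was 43.0%. CGG or CGA occurred on the transcribed strand in 43 of 83 windows, 51.8%, and on the opposite strand in 54.2%, against 62.0% and 59.3% over all regions. In the first 1000 nt it occurred in 9 of 10 windows, against 93.4% of all such regions. A CAG core, searched as CCAGC or CCAGG or the same letters with G in first place, occurred in 41.0% of windows of the 9 genes and 41.7% of all, and CTCC or CACC in 41.0% and 46.7%. A match says only that these letters lie in the window.

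Other genes that work with these kinases mostly did not pass the test against input, in which 5.86% of all genes were called higher and 3.52% lower. The partners of CDK7 in its complex had 0 of 2 genes called, regulators of P-TEFb 0 of 10 tested and CTD phosphatases 0 of 8. Of 5 Mediator kinase module partners, MED12, which activates CDK8, was called higher, with 22 IP clusters and 0 in the inputs, 1.01 ± 0.57 per 10000 (SD, n = 6; exact permutation test, adjusted p = 0.0282) and at least 1.91-fold over the input limit. Of 5 other transcription or splicing kinases and cyclins, CDK10 and CDK11A were called higher, with 45 and 35 IP clusters and 0 in the inputs, at least 3.91-fold and 3.04-fold over the input limit. CDK11A has the near-identical copy CDK11B, so its clusters are uncertain. MED12, CDK10 and CDK11A also had 0 clusters in the control IP. Only IP lists and control inputs could therefore bring these genes past the filter of at least 3 lists. A count of 0 in the control IP allows 2.21 per 10000. The pooled IP shares of MED12 and CDK11A, 1.14 and 1.82, lay under this limit, and that of CDK10, 2.34, just above it. Limits of single inputs, 2.56 to 6.26 per 10000, lay above the IP means of 1.01, 2.35 and 1.69. As for CDK13, separation by lists cannot tell a lower input share from a short input list. Of 10 cell cycle kinases and cyclins, CCNB1, the mitotic cyclin B1, was called lower, at 2.70 ± 0.55 against 5.37 ± 0.72 per 10000 (SD, n = 6 each; exact permutation test, adjusted p = 0.0282). The median difference, IP minus input, was 1.31 per 10000 for the other transcription or splicing kinases and cyclins, −0.50 for the CTD phosphatases and −0.63 for the cell cycle genes, beside 0.21 over all genes. None of these calls was made with the replicate block or with the higher-scoring clusters alone, where 0 genes were called and 2092 and 863 had an unadjusted p below 0.05.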

How the data were processed

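PAR-CLIP libraries of 3 HEK293 lines, 36 in all, were joined by the authors into 18 cluster lists (soluble and chromatin reads of a replicate together). The submitters' processing notes name bcl2fastq 1.8, cutadapt, Trim Galore, Bowtie2 2.2.9, Picard and GRCh38. Clusters were called with PARalyzer per the methods. The deposited lists give position, strand and a score of 0.501 to 1 whose meaning is not stated by the authors. The score served only to rank clusters within a list. No read numbers are in these lists, so depth is unknown and longer lists have lower limits. No per-sample column was left out (0 unused).

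Groups came from the labels. Clusters were assigned by midpoint and strand to GENCODE 44 genes, and regions are clusters merged by an overlap of at least 1 nt. Shares of 7676 protein-coding genes with a cluster in at least 3 of 18 lists were compared with two-sided exact permutation tests, Benjamini-Hochberg adjusted and called below 0.05. With 3 lists a side, lists that do not overlap are counted instead. The script was tested on simulated data. The 9 genes, all gene lists, named regions (at most 2 a gene, found in the most IP lists) and other named genes (called members of the lists, at most 3 a list) were chosen with earlier results of these data known. IP and input of a line and number come from the same extract, which pairs them. Deviations from the group means of same-numbered IP and input lists correlated at 0.0365 to 0.287 over genes in 6 pairs (median 0.120), against −0.213 to 0.117 in 12 pairs of other numbers (median −0.0804). Since deviations of 3 lists from their mean sum to 0, values of other numbers are not independent of those of the same number. The main test does not use the numbers. The fit with the replicate block, which joins both lines of a number, is given beside the calls it changes. Alternatives changed normalization, scale, filter, gene limits, assignment, score, isoform and replicates. Python 3.11.15 with numpy 2.4.6, pandas 2.3.3, scipy 1.17.1 and pysam 0.24.0 was used.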

Additional observations from a re-analysis of the deposited data

Results flagged for a closer look

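In the 6 SCAF4 and SCAF8 IP lists, CDK13 stood highest in SCAF4 IP replicate 1, at 1.58 clusters per 10000 against 0.919 in the next list, a gap of 0.640 of the whole range, past Dixon's 95% critical value for 6 lists. The 9 genes together stood highest in SCAF4 IP replicate 2, the longest list, at 12.5 per 10000 against 9.16 in the next, a gap of 0.675 of the range. Of 15 such checks 2 passed it, and chance passes about 1 in 20.

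On the strand opposite to CCNK, 3 clusters of the SCAF4 and SCAF8 IP lists were found, with 0 in the control IP and 0 in the inputs. All 3 lie inside CCDC85C, a gene annotated on that strand, 34046 to 47241 nt from the CCNK start.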

How the results depend on the processing

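Over the settings tried, 192 differences of single genes kept their direction and their side of the threshold, 5 lost the call and 19 changed sign. The 720 genes called between IP and input became 2898, all higher, with numbers of clusters in place of shares, 408 without SCAF4 IP replicate 2, and 0 with the higher-scoring clusters alone (from the median score of each list up), where 863 had an unadjusted p below 0.05. Leaving out a replicate number gave 0 in each case (0 to 0), because the smallest exact permutation p is then 0.0286. The CDK13 difference was 0.69 to 0.96 per 10000 in these runs, and CDK13 stayed called without SCAF4 IP replicate 2. With fewer clusters or lists the limits of a count of 0 rise. Leaving out SCAF4 IP replicate 2, the counts of lists that do not overlap with a replicate left out, and the mean share by score were alternatives chosen after seeing the data.

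Replicate numbers as a block gave 0 calls between IP and input, with 2092 genes at an unadjusted p below 0.05, a smallest exact permutation p of 0.00926 and a lowest adjusted p of 0.0843, which CDK13 had. Lists of the same line and number come from shared extracts, but each block joins both lines, so these pairs were not tested. The block removed every call between IP and input and, against the control IP, changed none, since no gene was called there.

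Signs against input changed for CDK12 (4.17), CCNT1 (3.67) and CCNK (6.17) in numbers of clusters, for CDK12 (0.13) and CCNK (0.20) on the log2 scale, and for CDK12 (0.0421) by score. With a replicate left out, the differences ran from −0.0307 to 0.243 for CDK7, −0.637 to 0.515 for CDK12, −0.145 to 0.979 for CCNT2 and −0.478 to 0.186 for CCNK, the last at 0.101 without replicate 3. Against control IP they changed for CDK12 (3.67) and CCNK (7.17) in numbers, for CCNK (0.47) on the log2 scale, and for CDK9 by score (−0.0520) and without SCAF4 IP replicate 2 (−0.0241). With a replicate left out they ran from −0.253 to 0.50 for CDK9 and −1.94 to 1.41 for CCNK. None of these values passed adjustment in shares, and the cause was not tested.

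Genes whose lists do not overlap numbered 2335 to 3542 between SCAF4 and SCAF8 IP with a replicate left out, 3228 to 5325 between SCAF4 IP and input and 2316 to 3412 between SCAF8 IP and input, since fewer lists separate more easily. Without SCAF4 IP replicate 2 alone they numbered 1667 and 2790 in the first and second of these comparisons. The 9 genes took 11.2 clusters per 10000 by score, against a mean of 9.05. The 20 consensus regions became 9 when 3 lists were required, 9 by score, 10 without SCAF4 IP replicate 2, and 9 to 24 with a replicate left out.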

Other observations

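CCNK had the most clusters of the 9 genes, and the genes whose shares followed it most closely over the 18 lists were DDX18 (Pearson r = 0.87), PRRC2A (0.87) and CDCA8 (0.86), among 5309 genes compared. These values describe lists that share their length and group, and carry no test.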
